A study of Mus musculus with 6 samples.

Results

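Kinetochore, centromere and spindle checkpoint genes were followed in cultured V720 cells after 24 h with vehicle or with 1 µM PD0332991. V720 is a breast cancer line from the mouse, and its labelled tissue is mammary epithelium. PD0332991 (palbociclib) inhibits the kinases CDK4 and CDK6, which phosphorylate the retinoblastoma protein at entry into S phase. There were 3 vehicle and 3 PD0332991 samples, each on its own Affymetrix mouse array, and both groups were grown in the same serum-containing medium. The labels name no genotype, transgene or clone for V720. A list of 47 genes was drawn up by function, and a gene was kept where at least 1 probe set carried its symbol alone. This gave 46 genes with 97 probe sets, out of 18193 genes on the array. Hjurp, the chaperone that delivers CENP-A, was dropped because its 5 probe sets each carry several gene symbols.

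The kinetochore is a protein assembly built on centromeric chromatin that attaches each chromosome to spindle microtubules. Its inner layer, the CENP proteins of the constitutive centromere-associated network, sits on nucleosomes that hold the histone H3 variant CENP-A. The outer layer, made of the KNL1, MIS12 and NDC80 complexes and the SKA complex, grips microtubules. The spindle checkpoint delays anaphase until every kinetochore is attached, and the chromosomal passenger complex, with the kinase Aurora B, corrects faulty attachments. Many of these genes are transcribed mainly from late S phase to mitosis in dividing cells.

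The arrays were at a like level, with median probe-set intensities of 69.6 to 72.7, and correlations between arrays of a group were 0.9963 to 0.9968 across genes. The ratio of the 3′ to the 5′ Gapdh control was 0.93 to 0.99 on vehicle and 0.98 to 1.01 on PD0332991 arrays. Of 8 epithelial markers, 7 were bright on every array (at least 1405) and Krt19 was at or near 1, and Cldn4 was called higher. The 7 fibroblast markers summed to 329 to 384 on vehicle and 294 to 326 on PD0332991 arrays, with Pdgfra called lower. The 5 endothelial markers summed to 124 to 142, with Emcn called lower, and the 3 adipocyte markers to 30.4 to 43.6. Of 9 leukocyte markers measured, 4 were called higher with PD0332991, with sums of 2224 to 2304 on vehicle and 2472 to 2603 on PD0332991 arrays, most of it Cd14. The pan-leukocyte marker Ptprc read 9.95 to 13.3 and 17.1 to 19.1. The part of these markers in the results below was not tested.

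Of the 46 genes, 43 were lower with PD0332991 at a limma adjusted p under 0.05, which is what "called" means here, and none was higher (Mad1l1, the gene with a value above 0, had an unadjusted p of 0.283). Over all genes on the array 11.2% were called lower and 9.81% higher. The median log2 fold change of the 46 genes was -1.43, beside 0.0048 for all genes, and single genes ranged from -2.15 to 0.11. At least 2-fold lower were 31 of them, where 1.15% of all genes were. These 31 made up 14.8% of the 209 genes called at least 2-fold lower and 67.4% of the 46. In 45 of the 46 genes every PD0332991 array lay below every vehicle array, as in 19.6% of all genes. In a cell culture measured as a whole, fewer cells in G2 and mitosis and less mRNA per cell cannot be told apart.

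**Figure D1:**
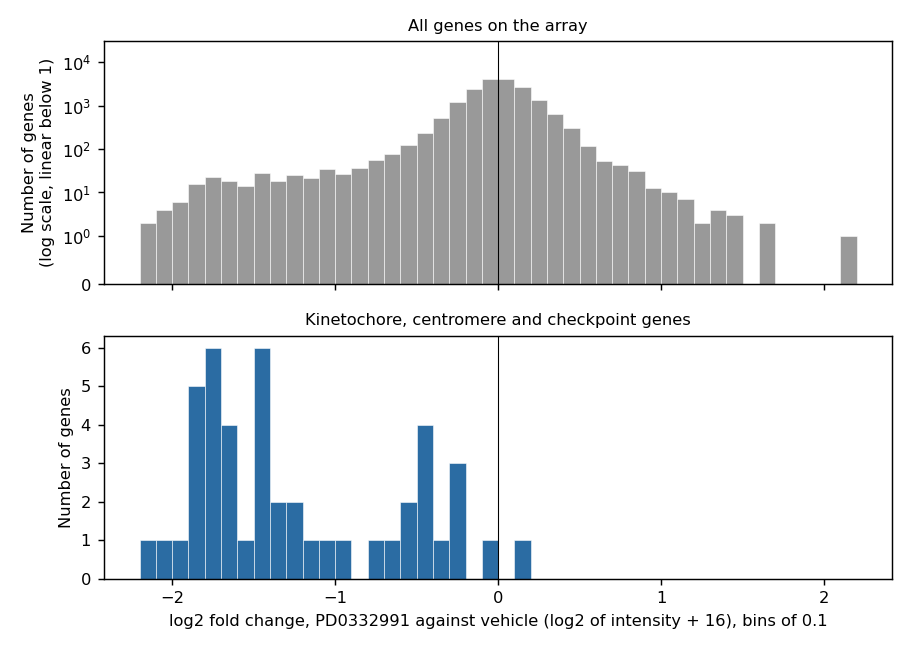
Number of genes (vertical axes, the upper one on a log scale) by log2 fold change of PD0332991 against vehicle (horizontal axis, bins of 0.1), for all 18193 genes above and the 46 kinetochore, centromere and checkpoint genes below. All genes centre on 0, whereas the 46 genes have a median of -1.43 and only Mad1l1 lies above 0.

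PD0332991 replicate 1 had the lowest levels of these genes. The mean log2 value of the 46 genes was 9.83, 9.86 and 9.84 on vehicle replicates 1 to 3 and 8.54, 8.65 and 8.66 on PD0332991 replicates 1 to 3. In 34 of the 46 genes replicate 1 was the lowest of the PD0332991 arrays, as it was in 37.6% of all genes. Without that array 41 of the 46 genes were called lower, as were 1366 of all 18193 genes.

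Promoter sequences are shown because the genes moved together. RefSeq promoter windows (assembly GRCm38.p6, 250 bases before to 50 after a start site) were found for 40 of the 46 genes. There was none for Spc24, Nsl1, Ska1, Zwilch, Incenp and Aurkb. Each window was searched on both strands for TTTGAA, the core of the cell cycle homology region through which MuvB complexes act, for its variant TTCGAA, and for CCAAT, the word of the factor NF-Y, whose reverse complement is ATTGG. The E2F-type words searched were TTCCCGC, the variant TTGGCGC, the variant TTGCCGC and the variant TTCGCGC. The windows below run from 100 bases before to 30 bases after the start, 5′ to 3′ in the direction of the gene, with every match in capitals. The first 6 belong to genes that fell at least 2-fold and have TTTGAA or its reverse complement TTCAAA near the start. The last 2, Zwint and Cenpb, were not called lower and have neither word in this stretch. These windows do not stand for the whole list. Cenpe, 3.51-fold lower, has no TTTGAA match in its window, and Bub3, 1.28-fold lower, has a match at base -43 from the start.
Cenpf, chr1:189688057-189688186, minus strand: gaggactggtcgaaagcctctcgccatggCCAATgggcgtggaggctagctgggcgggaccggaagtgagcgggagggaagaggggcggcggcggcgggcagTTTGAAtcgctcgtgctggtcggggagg
Cenpa, chr5:30666786-30666915, plus strand: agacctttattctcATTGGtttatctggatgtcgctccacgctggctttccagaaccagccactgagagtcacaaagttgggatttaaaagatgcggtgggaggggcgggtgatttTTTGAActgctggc
Ttk, chr9:83834589-83834718, plus strand: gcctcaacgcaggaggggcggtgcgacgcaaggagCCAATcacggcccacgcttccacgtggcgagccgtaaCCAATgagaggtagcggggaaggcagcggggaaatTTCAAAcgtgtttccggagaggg
Cdca8, chr4:124936888-124937017, minus strand: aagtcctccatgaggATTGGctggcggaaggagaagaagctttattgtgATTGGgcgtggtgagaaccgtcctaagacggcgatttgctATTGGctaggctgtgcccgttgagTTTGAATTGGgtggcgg
Kntc1, chr5:123749626-123749755, plus strand: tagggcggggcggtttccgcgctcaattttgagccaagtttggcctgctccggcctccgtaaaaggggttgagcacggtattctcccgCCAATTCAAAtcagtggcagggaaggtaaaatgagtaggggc
Spc25, chr2:69206184-69206313, minus strand: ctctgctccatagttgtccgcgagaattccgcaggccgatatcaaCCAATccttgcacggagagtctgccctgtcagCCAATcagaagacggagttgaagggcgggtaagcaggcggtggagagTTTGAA
Zwint, chr10:72654746-72654875, plus strand: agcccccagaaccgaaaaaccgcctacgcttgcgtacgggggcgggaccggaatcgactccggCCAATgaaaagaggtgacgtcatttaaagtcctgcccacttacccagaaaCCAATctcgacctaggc
Cenpb, chr2:131180038-131180167, minus strand: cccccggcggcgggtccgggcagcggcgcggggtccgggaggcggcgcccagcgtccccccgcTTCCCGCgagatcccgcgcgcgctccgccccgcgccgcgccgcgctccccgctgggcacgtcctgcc

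Counting the start base as 1, the TTTGAA match began at base 3 in Cenpf, 8 in Ttk, 14 in Cdca8, 17 in Cenpa and 25 in Spc25, and at base -8 in Kntc1. In Cdca8 and Kntc1 it shared 1 base with a CCAAT match. Windows outnumber genes, with 27 windows for 25 genes that fell at least 2-fold and 17 windows for the 15 other genes of the list. Bub3, among the latter, has 2 windows, with TTTGAA at base -43 in 1 and -167 in the other. The CCAAT matches lie at the same spacing from it in both windows, so this appears to be 1 site counted from 2 start sites. Of the 27 windows of genes that fell at least 2-fold, 13 (48.1%) held TTTGAA, as did 5 of the 17 windows of the other genes of the list (29.4%), 38.5% of windows of other genes called at least 2-fold lower, 13.4% of those of all genes on the array and 17.9% of all promoter windows. In 12 of the 27 (44.4%) the match lay wholly within 50 bases of the start. The same within-50 count was 2 of 17 (11.8%) for the other genes of the list, 31.1% for the 161 windows of other genes called at least 2-fold lower, 3.42% for the 18109 windows of all genes on the array, and 4.94% for all 32851 promoter windows. The 2 of 17 were windows of Bub3 and Cenpw, and Cenpw, 1.99-fold lower, fell just short of the 2-fold cut. The 50-base limit was chosen after the positions were seen.

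CCAAT, too, was more frequent in the 27 windows than over all windows. It stood in 20 of the 27 windows (74.1%), in 8 of the other 17 (47.1%), in 57.1% of windows of other genes called at least 2-fold lower and in 37.4% of all windows. Within 50 bases of the start it stood in 13 of the 27 (48.1%), in 5 of the 17 (29.4%), in 37.9% of windows of other genes called at least 2-fold lower, in 13.4% for all genes on the array and in 13.6% of all windows. The E2F-type words stood in 5 of 27 (18.5%), in 7 of 17 (41.2%), in 13.6% for all genes on the array and in 9.57% of all windows. Within 50 bases of the start they stood in 4 of 27 (14.8%), in 4 of 17 (23.5%) and in 5.43% for all genes on the array. Among other genes called at least 2-fold lower, 43.5% of windows held an E2F-type word. TTCGAA stood in 3 of 27 windows (11.1%), in 1 of 17 (5.88%), in 6.21% of windows of other genes called at least 2-fold lower and in 1.56% of all windows. In Bub1, which has no TTTGAA in its window, it began at base 15. A match is only a run of letters, and occupancy by any factor was not measured.

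**Figure D2:**
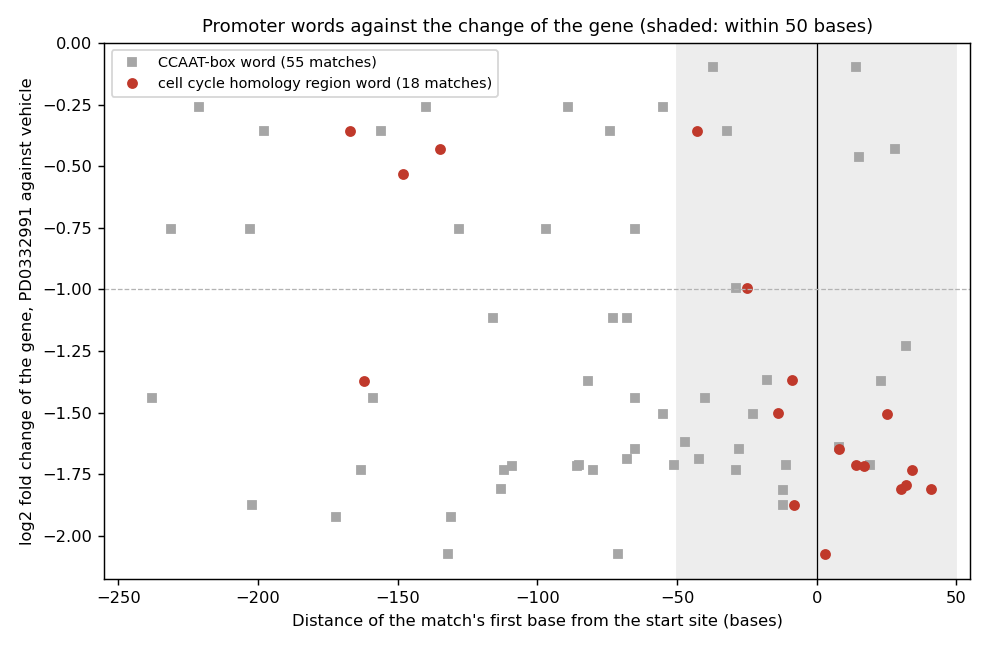
Distance of each TTTGAA (red circles) and CCAAT (grey squares) match from the start site in bases (horizontal axis) against the gene's log2 fold change of PD0332991 against vehicle (vertical axis), for the promoter windows of the 40 matched genes, with the shading marking 50 bases either side of the start. Below the dashed line at -1, 12 of the 13 windows with TTTGAA have it in the shaded band, and above the line 2 of 5 do.

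The genes of the CENP-A nucleosome and its network fell by unequal amounts. Of 15 inner CENP genes 14 were called lower, 10 of them at least 2-fold, with a median log2 fold change of -1.37. Cenpm, a small subunit of the CENP-H/I/K/M unit, read 205, 245 and 235 on vehicle arrays and 40.7, 57.0 and 47.9 on PD0332991 arrays (3.80-fold lower, log2 fold change -1.93, SE 0.11, adjusted p = 0.00022). Cenpa itself, on chromosome 5, went from 3733, 3697 and 3672 to 1051, 1131 and 1167 (3.29-fold, log2 fold change -1.72, SE 0.05, adjusted p = 4.5e-05). Both genes had groups far apart, and all 3 probe sets of Cenpa were called lower. Cenpi, of the same unit as Cenpm, read 798, 886 and 813 with vehicle and 234, 264 and 270.4 with PD0332991 (3.12-fold, log2 SE 0.07, adjusted p = 8.22e-05).

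The remaining network units followed in part. The other members of the CENP-H/I/K/M unit, Cenph and Cenpk, fell 2.34-fold and 2.71-fold, and the pair Cenpl and Cenpn, which reads the CENP-A nucleosome, fell 2.58-fold each. In the CENP-O/P/Q/U unit, Cenpu and Cenpq fell 3.08-fold and 2.17-fold, and Cenpp fell 2.82-fold, from 873, 817 and 857 to 269, 310.4 and 293. By contrast, Cenpo read 454, 506 and 482 with vehicle and 317, 335 and 398 with PD0332991 (1.36-fold, log2 fold change -0.45, SE 0.09, adjusted p = 0.0218). The call of Cenpo was lost when any 1 of the 3 vehicle arrays, PD0332991 replicate 1 or PD0332991 replicate 2 was left out (adjusted p = 0.0501 to 0.0726). Its 5 dimmer probe sets were not called. The second, dimmer probe set of Cenpu fell by less than the first, with log2 fold changes of -0.42 and -1.62, and their mean gave -1.02. The dimmer Cenpk probe sets also fell by less than its brightest, with log2 fold changes of -0.46 and -0.76. The mean of the probe sets gave -0.89 for Cenpk and -0.94 for Cenpp, both under 2-fold.

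Subunits that bind centromeric DNA or chromatin directly differed from one another. Cenpc1, which links CENP-A chromatin to the outer kinetochore, went from 1414, 1350 and 1328 to 996, 961 and 997 (1.38-fold lower, log2 fold change -0.46, SE 0.04, adjusted p = 0.00117). Cenpt and Cenpw are histone-fold partners that bind DNA together. Cenpw read 1694, 1644 and 1638 with vehicle and 817, 878 and 784 with PD0332991, a 1.99-fold fall (log2 fold change -0.99, 95% interval -1.12 to -0.87). Cenpt read 805, 791 and 781 against 634, 706 and 711, a 1.16-fold fall whose interval, -0.34 to -0.08, lay apart from that of its partner. Cenpt had an adjusted p of 0.0447 and was no longer called after leaving out any 1 of the 6 arrays (adjusted p = 0.0642 to 0.122). It was not called under array-median centring or quantile normalization either (adjusted p = 0.0705 and 0.0676).

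Cenpb, which binds a sequence box in satellite DNA, was the CENP gene that was not called. It read 348, 326 and 394 on vehicle arrays and 289.9, 301 and 306 on PD0332991 arrays, so that the groups did not overlap (log2 fold change -0.24, 95% interval -0.42 to -0.06, adjusted p = 0.0754). The vehicle arrays varied more (SD 34.9) than the PD0332991 arrays (SD 8.21). Cenpb was called lower after a filter on dim genes (adjusted p = 0.0102) with trended and robust variances (0.00929) and with a pseudocount of 64 (0.0412).

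Both CENP genes whose products act at the outer surface fell, and Cenpf had the lowest log2 fold change of the 18 CENP genes on this scale. The order with the dimmer Cenpm depends on the pseudocount. With a pseudocount of 1, Cenpm was at -2.22 and Cenpf at -2.11. Cenpf, a large coiled-coil protein of the kinetochore corona on chromosome 1, read 2345, 2430 and 2380 with vehicle and 492, 562 and 613 with PD0332991 (4.22-fold lower, log2 SE 0.08, adjusted p = 6.46e-05). Its 3 probe sets had log2 fold changes of -2.26, -2.08 and -1.97. Cenpe, a kinesin motor that moves chromosomes to the spindle equator, went from 1877, 2100.4 and 2046 to 532, 574 and 573 (3.51-fold, SE 0.06, adjusted p = 4.5e-05). The PD0332991 means were 23.3% and 27.9% of the vehicle means, with no overlap of the groups. Cenpj, which shares the name but acts at the centriole, read 522, 501 and 534 against 393, 369 and 399.7, a 1.33-fold fall (log2 fold change -0.41, SE 0.05, adjusted p = 0.00298).

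**Figure D3:**
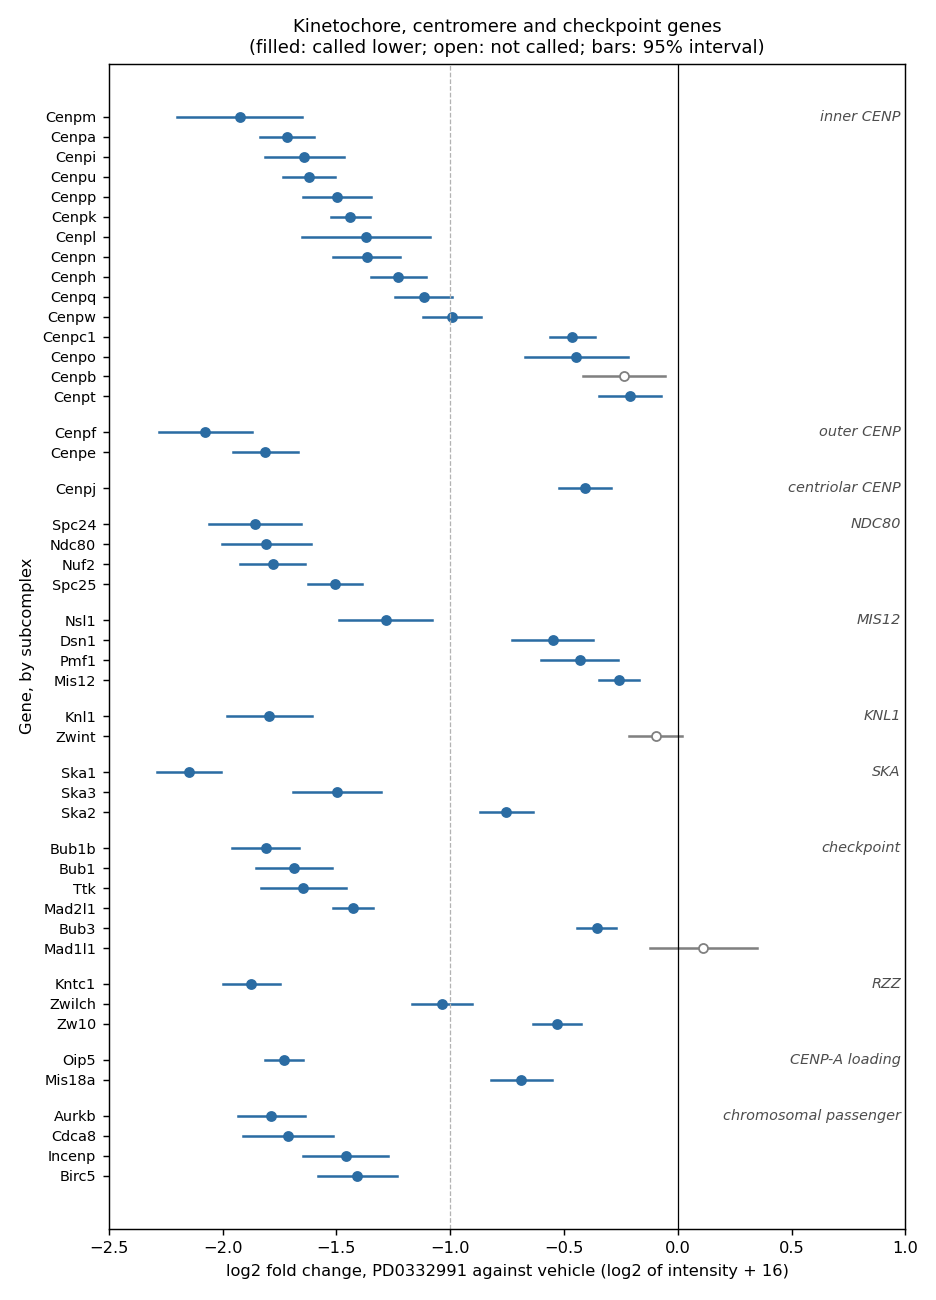
Log2 fold change of PD0332991 against vehicle (horizontal axis, log2 of intensity + 16) for each of the 46 genes (vertical axis, grouped by subcomplex), with points for the fitted value from 3 arrays a group and bars for the limma 95% interval. Filled points were called lower, and the 3 open points, Cenpb, Zwint and Mad1l1, were not called.

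All 4 subunits of the NDC80 complex, the main microtubule receptor, fell at least 2-fold, with log2 fold changes from -1.86 to -1.51. Spc24 read 606, 597 and 653 with vehicle and 151, 148 and 180.0 with PD0332991 (3.63-fold, with an SE of 0.08 on the log2 scale, adjusted p = 8.53e-05). Ndc80 went from 693, 709 and 677 to 167, 186 and 208 (3.50-fold), and its partner Nuf2 from 1573, 1596 and 1580 to 415, 453 and 481 (3.44-fold). Spc25, the least changed, went from 2594, 2722 and 2649 to 875, 961 and 937 (2.84-fold, SE 0.05). The 95% interval of Spc25, -1.63 to -1.39, overlapped that of Ndc80, -2.00 to -1.61, and lay just above that of Nuf2, -1.93 to -1.64. The brighter Spc25 probe set is of a type that can match several transcripts. The other, dim one read 84.1, 83.7 and 82.0 against 67.8, 55.5 and 51.5, and without such types Spc25 fell by 0.42 on the log2 scale (adjusted p = 0.0211), under 2-fold.

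The MIS12 complex, the platform between centromere and NDC80, had 4 genes called lower, 1 of them at least 2-fold. Nsl1 read 167, 159 and 163 with vehicle and 54.5, 67.2 and 51.8 with PD0332991 (2.43-fold, log2 SE 0.08, adjusted p = 0.000358). Its 95% interval, -1.49 to -1.08, did not overlap those of its 3 partners. A dimmer Nsl1 probe set read 75.9, 76.0 and 72.3 against 71.4, 93.0 and 95.9 and was not called (log2 fold change 0.17), and the mean of both gave a log2 fold change of -0.56, under 2-fold.

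The partners of Nsl1 had smaller falls. Dsn1, which docks on the inner kinetochore, went from 713, 828 and 793 to 510.4, 506 and 561 (1.46-fold, adjusted p = 0.00472). Pmf1 went from 233, 276 and 249.9 to 177, 191 and 181 (1.35-fold, adjusted p = 0.00965), on a probe set of a type that can match several transcripts. Mis12 itself went from 831, 854 and 866 to 702, 702 and 719.97 (1.20-fold, adjusted p = 0.0055). In each of the 3 the arrays of the groups did not overlap.

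The KNL1 pair parted. Knl1, the scaffold that recruits the BUB proteins, read 683, 772 and 778 with vehicle and 186, 212 and 211 with PD0332991 (3.47-fold lower, log2 fold change -1.79, SE 0.08, adjusted p = 7.7e-05), and both of its probe sets were called lower. Zwint, which binds KNL1 and helps to bring the ROD complex to kinetochores, read 1540, 1482 and 1466 against 1330.2, 1411 and 1452 on its brightest probe set. That is a log2 fold change of -0.10 (95% interval -0.21 to 0.02, adjusted p = 0.216). The highest PD0332991 array lay just below the lowest vehicle array.

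Zwint had 7 probe sets, more than any other of the 46 genes, and none was called lower when each probe set was tested on its own. Probe set 1423724_at was called higher, with 1181, 1222 and 1179 on vehicle arrays and 1476, 1421 and 1459 on PD0332991 arrays (log2 fold change 0.28, SE 0.04, adjusted p = 0.00712). The other 6 lay between -0.15 and 0.01. This was the 1 probe set called higher among the 97. The call of Zwint therefore depends on the probe set chosen, and on this one alone the gene would be called higher.

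In the SKA complex, which tracks microtubule ends together with NDC80, the 3 genes fell by distinct amounts. Ska1, on chromosome 18, read 961, 964 and 898 with vehicle and 186, 205 and 208 with PD0332991 (4.44-fold, log2 fold change -2.15, SE 0.06, adjusted p = 4.5e-05). This was the lowest log2 fold change of all 18193 genes on this scale. With a pseudocount of 64, Cenpf was lower, at -1.99 against -1.93 for Ska1. The Ska1 probe set is of a type that can match several transcripts. Ska3 went from 306, 303 and 284 to 87.8, 90.2 and 108 (2.83-fold, SE 0.08, adjusted p = 0.000149). Ska2 went from 1066, 1101 and 1081 to 625, 673 and 611 (1.69-fold, SE 0.05, adjusted p = 0.000316). Their 95% intervals, -2.29 to -2.01, -1.69 to -1.31 and -0.87 to -0.64, did not overlap. A dim Ska1 probe set, with 47.9, 30.7 and 42.0 against 31.9, 57.3 and 38.0, was not called, and the mean of its 3 probe sets gave a log2 fold change of -1.06.

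**Figure D4:**
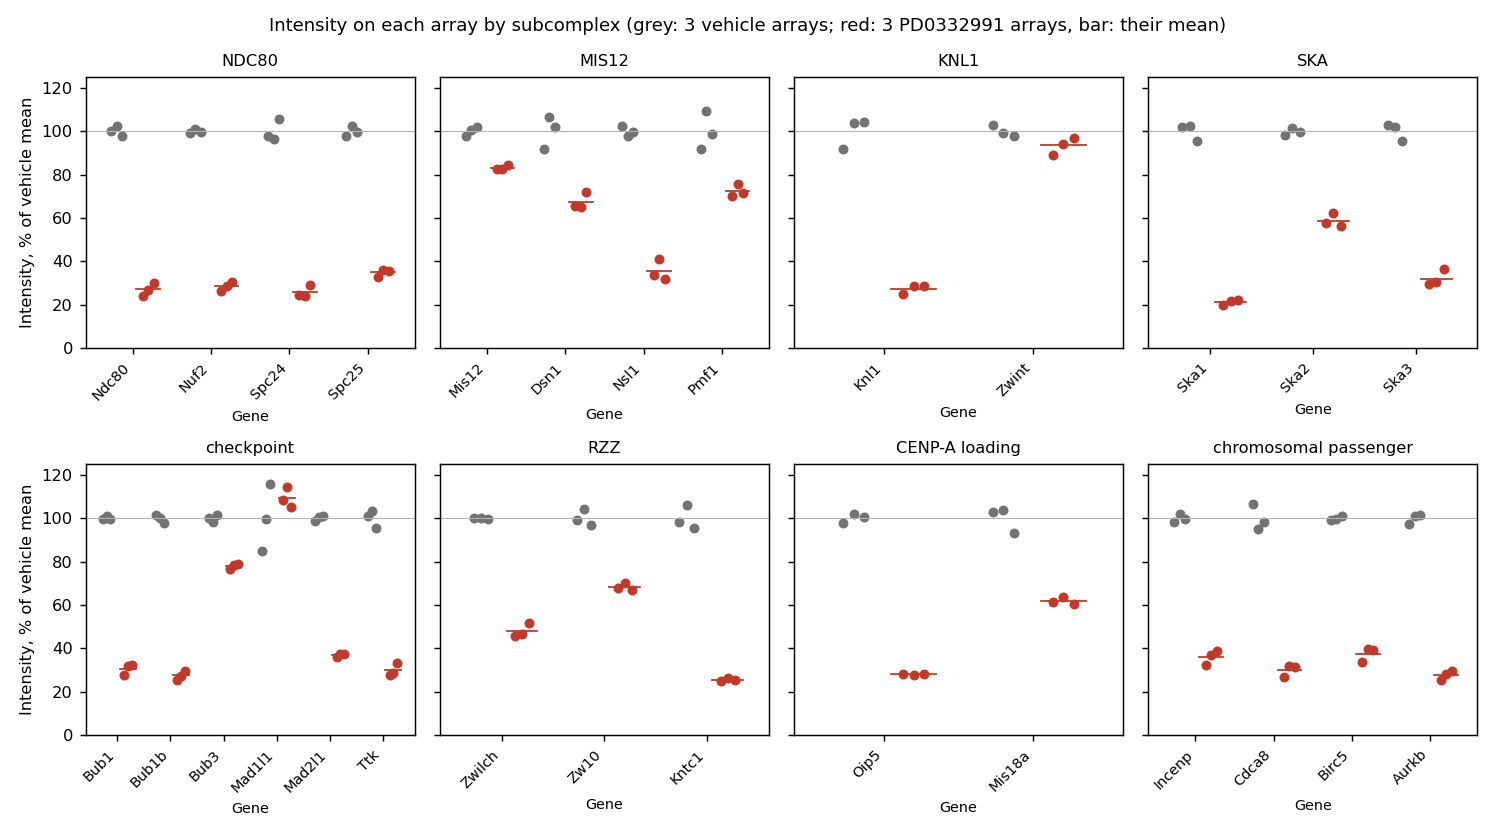
Intensity on each array as percent of the gene's vehicle mean (vertical axes, from 0) for the outer kinetochore, checkpoint, CENP-A loading and chromosomal passenger genes (horizontal axes), with grey points for the 3 vehicle arrays, red points for the 3 PD0332991 arrays and a red bar for their mean. The red bars of the NDC80 genes lie between 25.8% and 34.8% and those of the MIS12 genes between 35.5% and 83.2%, and among the genes drawn only Mad1l1 has red points among the grey ones.

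Among the 6 core checkpoint genes, 4 fell at least 2-fold, 1 fell by less and 1 was not called. Bub1b, whose protein BubR1 inhibits the anaphase-promoting complex, read 1107, 1091 and 1067 with vehicle and 278, 296 and 323 with PD0332991 (3.51-fold, log2 SE 0.06, adjusted p = 4.5e-05). The kinase gene Bub1 went from 1761, 1784 and 1762 to 485, 564 and 571 (3.22-fold, SE 0.07). Ttk, which encodes the kinase MPS1 that starts the signal, went from 527, 539 and 498 to 144, 149.6 and 174 (3.13-fold, SE 0.08, adjusted p = 9.23e-05). All 3 probe sets of Bub1b and both of Bub1 and of Ttk were called lower. Mad2l1, the inhibitor of Cdc20, was 2.69-fold lower, with 2799 to 2863 on vehicle and 1018 to 1063 on PD0332991 arrays.

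Bub3 and Mad1l1, partners of these proteins, had the smallest log2 fold changes of the 6. Bub3, the adaptor that carries BUB1 and BubR1 to KNL1, read 4454, 4374 and 4502 against 3394, 3496 and 3513 (1.28-fold lower, log2 fold change -0.36, SE 0.03, adjusted p = 0.00169). Of its 5 probe sets 3 were called lower. Mad1l1, which anchors MAD2 at the kinetochore, read 57.2, 67.2 and 78.1 against 73.3, 77.1 and 71.0, with overlapping groups (log2 fold change 0.11, 95% interval -0.12 to 0.35, adjusted p = 0.48). Its signal was low, so that the interval still allows a fall of 0.12 or a rise of 0.35. The sign of Mad1l1 turned to -0.02 when arrays were centred on spike-ins and vehicle replicate 1 was left out.

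The ROD-ZW10-Zwilch complex brings dynein and MAD1 to kinetochores. Kntc1, which encodes ROD, went from 670.1, 723 and 649 to 169.9, 178 and 173 (3.67-fold lower, log2 SE 0.05, adjusted p = 4.5e-05). Zwilch went from 977, 981 and 974 to 445, 457 and 503 (2.05-fold, SE 0.05, adjusted p = 0.00014). Zw10, which also acts in membrane traffic, went from 607, 639 and 593 to 417, 430.2 and 410.2 (1.45-fold, SE 0.04, adjusted p = 0.000887). Each of the 3 had separate 95% intervals, -2.00 to -1.75, -1.17 to -0.91 and -0.64 to -0.43. The 3 other Zw10 probe sets had intensities under 20 and were not called.

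The loading factors for CENP-A were both lower. Oip5, which encodes MIS18-beta, read 496, 517 and 510.1 with vehicle and 142, 141 and 142 with PD0332991 (3.32-fold, log2 fold change -1.73, SE 0.03, adjusted p = 4.5e-05). Mis18a, its partner in the MIS18 complex, went from 1749, 1759 and 1584 to 1039, 1079.9 and 1022 (1.61-fold, log2 fold change -0.69, SE 0.05, adjusted p = 0.000809). The groups did not overlap in either gene.

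All 4 genes of the chromosomal passenger complex fell at least 2-fold, with a median log2 fold change of -1.59. Aurkb, the kinase subunit, read 846, 879 and 883 with vehicle and 222, 244 and 257 with PD0332991 (3.45-fold, log2 SE 0.06, adjusted p = 4.55e-05). Cdca8, which encodes Borealin, went from 2289, 2048 and 2111 to 579, 687 and 669.5 (3.28-fold, SE 0.08, adjusted p = 9.99e-05). Incenp, the scaffold, went from 1876, 1946 and 1896 to 611, 704 and 742 (2.75-fold, SE 0.08, adjusted p = 0.000145). Birc5, which encodes survivin and targets the complex to centromeres, went from 3734, 3747 and 3791 to 1265, 1493 and 1470.4 (2.65-fold, SE 0.07, adjusted p = 0.000127). In all 4 the arrays of the groups lay apart, and PD0332991 replicate 1 was the lowest array in each. The 95% interval of Birc5, -1.58 to -1.24, lay apart from that of Aurkb, -1.93 to -1.64, and the other pairs of intervals overlapped. Of the 5 Incenp probe sets, 4 were called lower.

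Probe sets of the same gene mostly moved alike. Of 27 genes with several probe sets, 16 had all of them called lower, and 19 genes had a single probe set. Of the 97 probe sets, each tested on its own, 70 were called lower, 26 were not called and 1 was called higher, where 9.7% of all probe sets with 1 gene symbol were called lower and 7.87% higher. Of the 26 not called, 17 had mean intensities under 100 in both groups. Among these was Cenpp probe set 1432362_at, with 79.9, 49.7 and 60.9 against 81.9, 80.4 and 83.2, while the other 2 probe sets of Cenpp had log2 fold changes of -1.63 and -1.496.

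**Figure D5:**
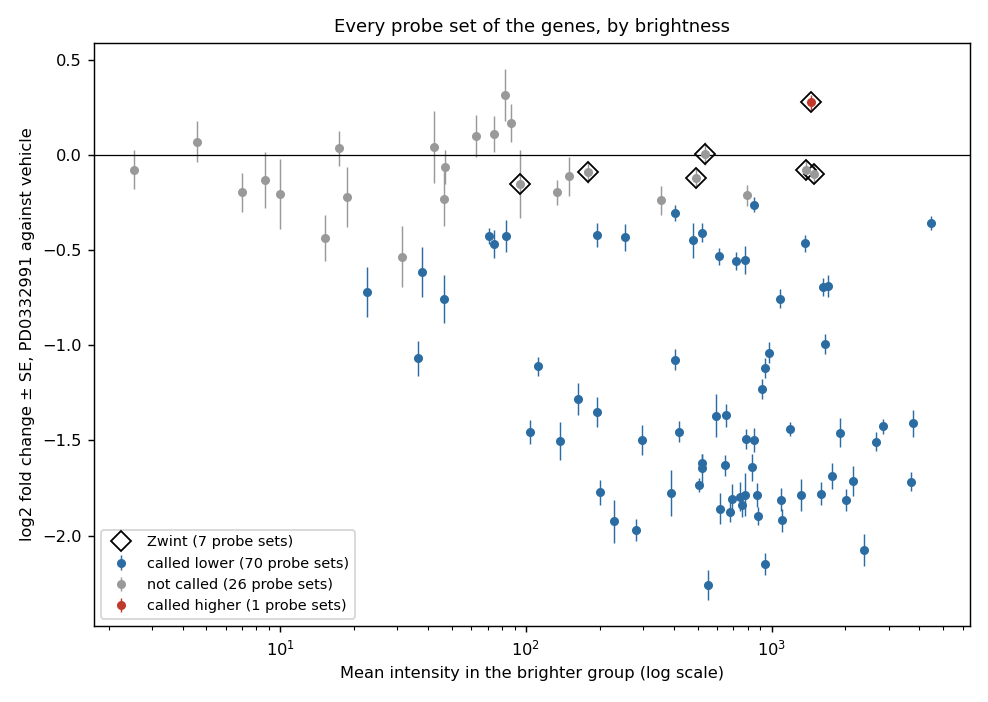
Log2 fold change ± SE of PD0332991 against vehicle (vertical axis) for each of the 97 probe sets of the 46 genes against its mean intensity in the brighter group (horizontal axis, log scale), from 3 arrays a group, with diamonds around the 7 Zwint probe sets. Of the grey probe sets that were not called 17 of 26 lie below an intensity of 100. Of the Zwint probe sets 6 lie between -0.15 and 0.01, and 1, at 0.28, was called higher.

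A further 24 genes of the same structures were listed for function. Of the 23 measured genes 18 were called lower and 1 higher, 13 were at least 2-fold lower, and the median log2 fold change was -1.11. Over all genes 11.2% were called lower, 9.81% higher and 1.15% at least 2-fold lower. Kif2c, a kinesin that depolymerizes microtubules at centromeres, went from 1184, 1153 and 1106 to 283, 314 and 321 (log2 fold change -1.85, adjusted p = 4.5e-05). Ercc6l, a translocase on stretched centromeric DNA, Knstrn, a partner of astrin at kinetochores, and Haspin, the kinase whose histone mark recruits Aurora B, had log2 fold changes of -1.36, -1.62 and -1.24, each with adjusted p = 4.5e-05. These 4 had the smallest p values of the list.

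The 5 remaining genes were not called or were higher. The microtubule-binding Clasp1 and Clasp2 had log2 fold changes of -0.11 each (adjusted p = 0.0848 and 0.17). Bod1, a regulator of chromosome biorientation, had -0.06 (adjusted p = 0.421), and Mad2l1bp, which helps to switch the checkpoint off, 0.01 (adjusted p = 0.904). Ndel1, a dynein regulator, was called higher, from 3377, 3476 and 3444 to 4034, 4033 and 4211 (log2 fold change 0.25, adjusted p = 0.00691). Its paralog Nde1 was lower, from 436, 451 and 426 to 239.7, 262 and 286 (log2 fold change -0.71, adjusted p = 0.00161). The rise of Ndel1 was larger than the spread between arrays, and the groups did not overlap in either gene.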

How the data were processed

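Total RNA of 6 samples was biotin-labelled by the standard Affymetrix procedure, per the labels' protocols. The values are the authors' deposited linear intensities, 1 per probe set and array for 45101 probe sets. How probes were summarised and arrays scaled is not given in the sources used here, and the scanner files were not used here. Scaling of arrays to 1 level would hide a difference in RNA content between cells. The 64 control probe sets were left out, and 34945 of the rest carry exactly 1 gene symbol in the platform annotation, naming 18193 genes. Each gene was represented by its brightest probe set (highest mean log2 value).

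Values were transformed to log2(intensity + 16), which understates changes of dim genes, and fold changes are on that scale. The groups were compared in R 4.3.3 by limma 3.58.1 (lmFit, eBayes, no block). P-values are two-sided and were adjusted by Benjamini-Hochberg across the 18193 genes, with calls at an adjusted p under 0.05. The fit was tested on simulated data. Plots used matplotlib 3.10.9. The labels call the samples biological triplicates but do not say what differed between them, so p-values measure the spread between these samples, and the number of arrays limits the precision.

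The genes, lists and alternatives were chosen with earlier results of these data known. Values on every array are given for up to 3 called genes per subcomplex with the largest change, genes not called, genes whose probe sets disagree and genes whose call ends under an alternative. Array values of Cenpc1, Cenpw, Spc25 and Birc5 fall outside this rule and were added after their values were seen. Of the further list, the 4 genes with the smallest p and those not called are named, and Ndel1 and Nde1 were added after their values were seen. Alternatives covered scaling, pseudocount, dim genes, choice of probe set, variance model, threshold, a replicate block and leaving out arrays.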

Additional observations from a re-analysis of the deposited data

How the results depend on the processing

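The fall of the list kept its direction throughout, and 38 of the 46 genes kept both direction and call under every alternative that tested them. The number called lower was 40 to 44 of 46 with another scaling, pseudocount, variance model or summary of probe sets. Over all 18193 genes these settings called 1092 to 2653 lower. For the 46 genes the number was 41 to 42 with each array left out in turn, beside 1326 to 1494 over all genes. At an adjusted p of 0.01 it was 41, and 31 of the 46 genes were at least 2-fold lower. After a filter on dim genes 42 of 43 were called lower, as were 2522 of all 9096 genes left. Without probe sets of the types that can match several transcripts 33 of 39 were called lower and 1, Zwint, higher (log2 fold change 0.28, adjusted p = 0.00632). Over all 16591 genes of that setting, 1647 were called lower and 1399 higher. Aurkb, Birc5, Cenpb, Cenph, Mis18a, Nuf2 and Pmf1 have only probe sets of these types and so were not tested there. In that setting Ska1 was represented by a dim probe set (0.0442, adjusted p = 0.907), Spc25 was no longer 2-fold lower (-0.42), and Zw10 lost its call (adjusted p = 0.528). The median log2 fold change of the list was -1.54 with spike-in centring, -1.36 with a pseudocount of 64 and -1.09 when probe sets were averaged per gene, and -1.46 to -1.39 with each array left out. Mad1l1 turned to -0.0154 with spike-in centring without vehicle replicate 1, where Mis12 and Cenpo missed the threshold (adjusted p = 0.0557 and 0.0502). Spike-in centring moves the median of all genes to -0.11 and gives 1373 lower and 273 higher, against 2035 and 1785 as deposited, 1781 and 2294 with quantile normalization and 1618 and 2138 with array-median centring. Vehicle replicate 1 had the lowest mean spike-in signal (log2 9.90, beside 10.07 to 10.18 on the other arrays). Without it, spike-in centring gave a median of -0.04 for all genes, with 1092 lower and 440 higher, and -1.47 for the list. With the replicate number as a block, 42 of the 46 and 1152 of all genes (2035 without it) were called lower, and Cenpt was not (adjusted p = 0.112). To look for pairing, each array's deviations from its group mean were correlated between the groups over all genes. Same-numbered arrays had correlations of these deviations of 0.0076, -0.05 and 0.05, and the other pairs -0.06 to 0.05. With 3 arrays a group this cannot exclude a pairing. Signal over background limits Mad1l1 and the dimmer probe sets.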
